A study of Mus musculus with 6 samples.

Results

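The genes described here encode the carriers that hepatocytes use at their blood-facing (sinusoidal, or basolateral) membrane, 6 for uptake and 2 for export. The uptake genes are Slc10a1, Slco1a1, Slco1a4, Slco1b2, Slco2b1 and Slc22a7, and the export genes are Abcc3 and Abcc4. They were chosen by name, and every probe set that the platform annotation pairs with 1 of these symbols alone was read, 16 probe sets in all. Of the 8 genes, 7 passed the filter on low values and were tested among 8554 genes, and Abcc4 did not pass.

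Hepatocytes take up bile acids, bilirubin, hormones and drugs from sinusoidal blood and secrete them into bile across the opposite, canalicular membrane. Slc10a1 (NTCP) imports conjugated bile acids together with sodium, and the organic anion transporting polypeptides of the Slco family import bile acids and many other organic anions without sodium. Abcc3 and Abcc4 (MRP3 and MRP4) are ATP-driven pumps that return conjugates and bile acids to the blood, and both are known to rise in the cholestatic liver, where Slc10a1 falls.

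Expression was measured on Affymetrix whole-genome mouse arrays with 2 ug of total RNA per array. The RNA came from whole liver taken 18 hours after partial hepatectomy, an operation that removes most of the liver and sets off regeneration of the remnant. All mice were C57BL/6 and carried floxed Socs3 alleles (Socs3 fl/fl). Cre plus mice also carried Cre recombinase under the albumin promoter (Alb-Cre+), which excises Socs3 in hepatocytes, and Cre minus mice were their Alb-Cre- littermates. Each group has 3 arrays, named A, B and C, and values of a group are given in that order throughout. Ages are not given in the sources used here, and the labels do not say that each array is a separate mouse, so the p-values rest on a spread between samples that may in part be technical. Socs3 encodes a protein that cytokines induce and that shuts off the JAK kinases and STAT3 behind their receptors. The comparison shows how its loss from hepatocytes relates to the transporter transcripts at 1 time point, and with no array from an unoperated liver, a difference present before surgery cannot be told apart from one that followed it.

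Median log2 values of the arrays ran from 2.98 to 3.02, and pairs of arrays correlated over the tested genes at 0.982 to 0.996. Cre plus B stood nearer to the control arrays (0.991 to 0.993) than to Cre plus A (0.989) and C (0.987). Socs3 was lower in every Cre plus array on all 3 of its probe sets, and the brightest of them read 9.09, 9.30 and 9.24 in Cre minus against 7.44, 6.69 and 7.47 in Cre plus. The hepatocyte markers were present at high levels in all arrays, with albumin (Alb), chosen for its role after the values were seen, between 15.2 and 15.3. Of the 8 hepatocyte markers tested, 6 had lower and 2 higher Cre plus means, with a median log2 difference of -0.10, and 1 of them (Cps1, lower) had an unadjusted p under 0.05. Their summed signal was 172501 to 177866 in Cre minus and 160755 to 174199 in Cre plus. The brightest markers dominate this sum, and Alb lay near the highest value of any probe set (15.65 to 15.74). The sum therefore says little about the dimmer markers. Their part in the transporter values was not tested. In whole liver, fewer cells of a type and less RNA per cell cannot be told apart.

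All 7 transporter genes that were tested had a lower mean in Cre plus than in Cre minus, as did 53.5% of all genes tested, and none passed limma's threshold of an adjusted p under 0.05 over all genes. That threshold called 0.0234% of the 8554 genes, and of lower genes 0%. At an unadjusted p under 0.05, 4 of the 7 were lower (Slc10a1, Slco1a4, Abcc3 and Slc22a7) and 0 were higher, against 8.21% and 6.62% of all genes tested in these directions. The groups did not overlap for 3 of the 7 (Slc10a1, Slco1a4 and Slc22a7), against 11.9% of all genes with every Cre plus value below every Cre minus value, and for 0 of the 7 the other way, against 9.21%. The median log2 difference, Cre plus minus Cre minus, was -0.46 over the 7 genes and -0.01 over all genes tested. Without Cre plus B, the Cre plus array that correlated most closely with the controls over all genes tested, the median of the 7 was -0.56 and 3 of them (Slc10a1, Slco1a4 and Slco1b2) were lower at an unadjusted p under 0.05, again with 0 past the adjusted threshold. In that comparison 10.03% of all genes were lower at the same p, and 13 of 8542 genes passed the adjusted threshold, against 2 of 8554 with all arrays. Cre plus B was picked for its likeness to the controls in these same data, so larger differences without it were likely beforehand. All 7 lay above the filter's log2 value of 4 in all 6 arrays, the lowest value being 4.94 for Slco1a4 in Cre plus B, so none was kept through 1 group alone.

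**Figure D1:**
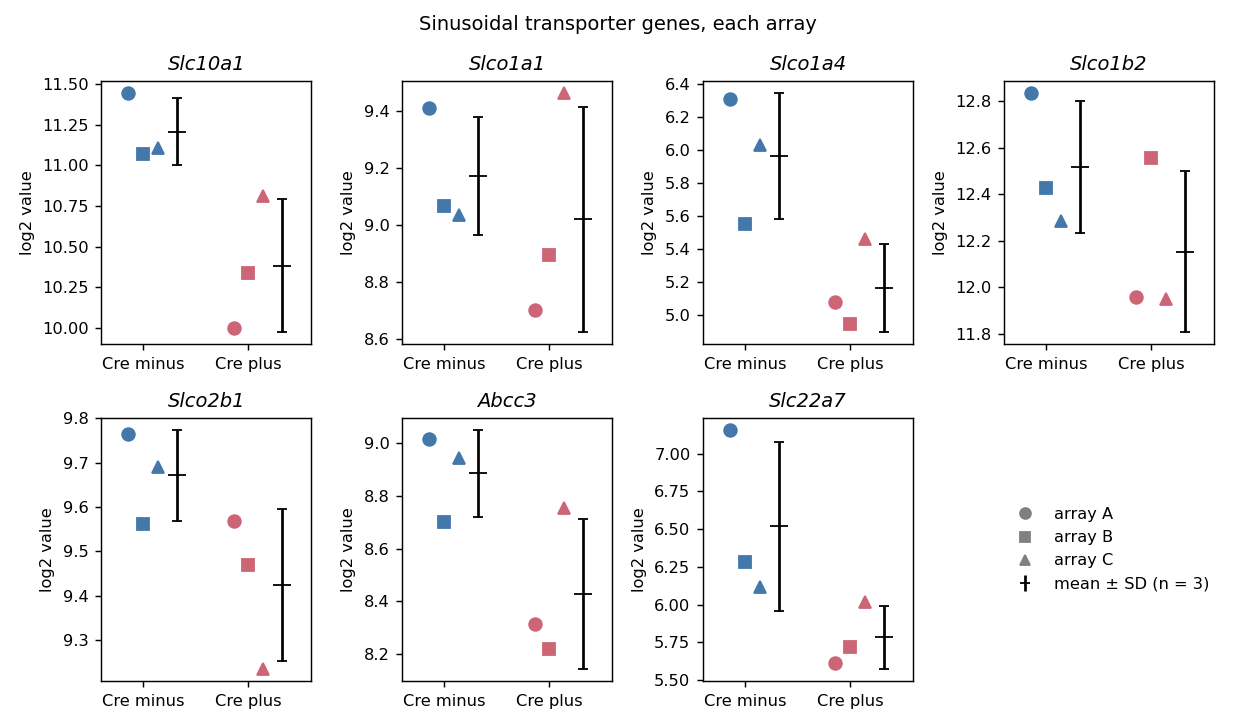
Log2 expression value (vertical axis, a separate range in each panel) of the 7 tested transporter genes in the 3 Cre minus and 3 Cre plus arrays, with the mean and SD of each group (n = 3) beside the points. Slc10a1, Slco1a4 and Slc22a7 show no overlap between the groups, while Cre plus C is the highest of the 6 arrays for Slco1a1 and Cre plus B lies among the Cre minus values for Slco1b2.

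Slc10a1, the sodium-dependent bile acid importer, had log2 values on probe set 1424898_at of 11.44, 11.07 and 11.11 in Cre minus against 9.9996, 10.34 and 10.81 in Cre plus. Every Cre plus array was below every Cre minus array, and Cre plus C lay closest to them. The means were 11.21 ± 0.21 and 10.38 ± 0.41 (SD, n = 3), a log2 difference of -0.82 ± 0.22 (SE) with limma's unadjusted p = 0.0105 and adjusted p = 0.212. Expressed as signal, Cre plus stood at 56.5% of Cre minus, with a 95% interval of 38.6% to 82.6%. The other probe set of the gene, 1450261_a_at, gave 10.53, 10.24 and 10.37 against 9.01, 9.45 and 9.89, again with no overlap and with the Cre plus arrays in the same order. Its log2 difference was -0.93 ± 0.23. The exact permutation p was 0.1 for each, the smallest that 3 arrays against 3 can give.

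Slco1a4 (Oatp1a4), an organic anion and bile acid carrier, had the next smallest p of the uptake genes. Its values were 6.31, 5.55 and 6.03 in Cre minus against 5.08, 4.94 and 5.46 in Cre plus. The groups did not overlap, although Cre minus B and Cre plus C were only narrowly apart. The log2 difference was -0.80 ± 0.23, with limma's unadjusted p = 0.0128 and adjusted p = 0.224, and signal in Cre plus stood at 57.4% of that in Cre minus (95% interval 39.0% to 84.5%). A single probe set, 1420405_at, reads this gene, and it lies in the lower part of the scale, where values are less certain.

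Slc22a7 (Oat2), which carries organic anions and nucleotides, had values on its only probe set, 1451460_a_at, of 7.16, 6.28 and 6.12 in Cre minus against 5.61, 5.72 and 6.02 in Cre plus. All Cre plus values were the lower ones, and Cre minus A stood above the rest. The log2 difference was -0.74 ± 0.29, with limma's unadjusted p = 0.0436 and adjusted p = 0.321. Without Cre minus A it was -0.42.

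Slco1b2 (Oatp1b2), the mouse counterpart of the human hepatic carriers of bilirubin and statins, did not separate the groups. Its brightest probe set, 1452494_s_at, gave 12.83, 12.43 and 12.29 in Cre minus against 11.96, 12.55 and 11.95 in Cre plus. Cre plus A and C were below every Cre minus array, while Cre plus B was above Cre minus B and C. The log2 difference was -0.36 ± 0.22, with an interval from -0.90 to 0.17 and limma's adjusted p = 0.492. It was -0.56 without Cre plus B and -0.20 without Cre minus A. The next 2 probe sets by brightness, 1449394_at and 1427826_a_at, gave -0.43 ± 0.22 and -0.42 ± 0.21, and Cre plus B lay above Cre minus C on both. Of the remaining 2, 1427825_at lay at the filter, between 3.97 and 4.14, and 1452569_at missed it.

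Slco1a1 (Oatp1a1), an anion and steroid conjugate carrier known to be more abundant in male than in female mouse liver, had overlapping groups on both probe sets. The brighter, 1420379_at, gave 9.41, 9.07 and 9.04 in Cre minus against 8.70, 8.89 and 9.46 in Cre plus. Cre plus C was the highest of all 6 arrays there, and Cre plus A the lowest. The log2 difference was -0.15 ± 0.22 (interval -0.69 to 0.38, limma's adjusted p = 0.779), and the other probe set, 1449844_at, gave -0.26 ± 0.20. Without Cre plus A the value on the brighter probe set was 0.0067, and without Cre plus C it was -0.37.

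Slco2b1 (Oatp2b1), a carrier of steroid sulfates that is also found in other tissues, had values on probe set 1433933_s_at of 9.76, 9.56 and 9.69 in Cre minus against 9.57, 9.47 and 9.24 in Cre plus. The groups touched, with Cre plus A just above Cre minus B. The log2 difference was -0.25 ± 0.11 (limma's unadjusted p = 0.0586, adjusted p = 0.352), and the dimmer kept probe set, 1454777_at, gave -0.12 ± 0.08. A further probe set, 1458171_at, lay near 2.5 in all arrays and missed the filter.

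The export genes gave 1 measured member. Abcc3 (Mrp3), the pump for glucuronides and bile acids, had values on its only probe set, 1428988_at, of 9.01, 8.70 and 8.94 in Cre minus against 8.31, 8.22 and 8.75 in Cre plus. Cre plus A and B were below every Cre minus array, while Cre plus C lay just above Cre minus B. The log2 difference was -0.46 ± 0.16, with limma's unadjusted p = 0.0322 and adjusted p = 0.292, and signal in Cre plus stood at 72.8% of that in Cre minus (95% interval 55.1% to 96.3%). Abcc4 (Mrp4), which exports bile acids and cyclic nucleotides, was read by 1 probe set, 1443870_at, at values between 2.79 and 2.82 in all 6 arrays, close to the array medians. It missed the filter, and a difference between the groups was not detectable at that level.

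**Figure D2:**
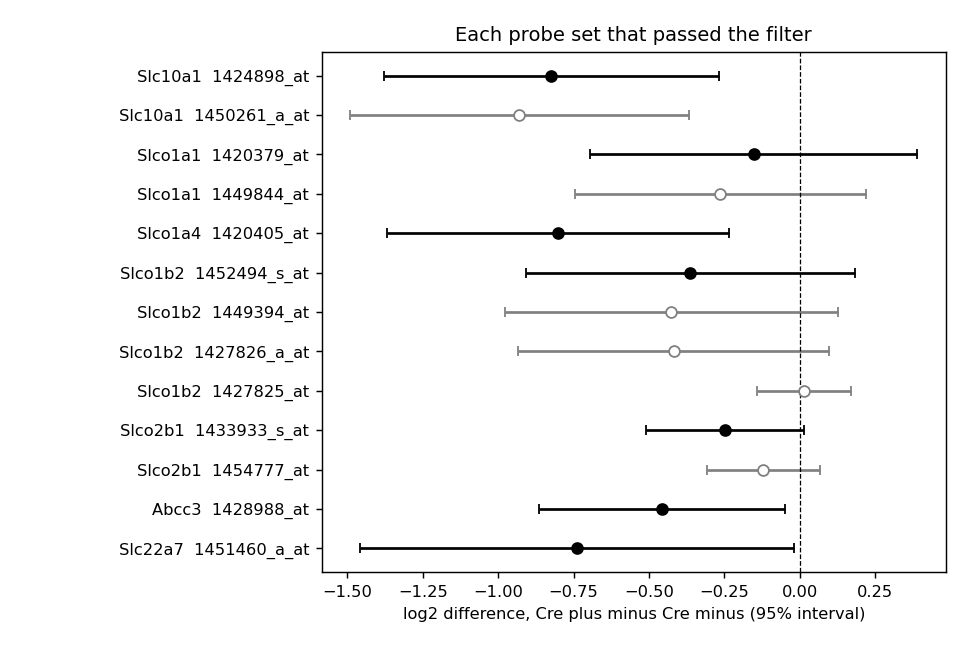
Log2 difference between Cre plus and Cre minus (horizontal axis, with the 95% interval from limma's fit over every kept probe set, n = 3 arrays per group) for the 13 probe sets of the transporters that passed the filter. Filled points mark the probe set used for each gene. The intervals of both Slc10a1 probe sets and of those of Slco1a4, Abcc3 and Slc22a7 lie below 0. The Slco1b2 probe set that lies at the filter is the only one with a point above 0 (0.01).

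Promoter sequence was available for 6 of the 8 genes, as 10 windows of the 250 bases before an annotated start (RefSeq, GRCm38.p6). Abcc3 and Slc22a7 had no entry. The windows of Slc10a1 and Slco1a4, whose groups did not overlap, are shown with those of Slco1b2 and Slco1a1, whose groups did. Each is printed 5′ to 3′ on the strand of its gene and ends at the base before the start, and for Slc10a1 the start further upstream is used. Capitals mark matches on either strand to the STAT motif TTCNNNGAA, the C/EBP motif TTNNGNAA or the HNF1 core GTTAAT.
Slc10a1, chr12:80968706-80968955, minus strand: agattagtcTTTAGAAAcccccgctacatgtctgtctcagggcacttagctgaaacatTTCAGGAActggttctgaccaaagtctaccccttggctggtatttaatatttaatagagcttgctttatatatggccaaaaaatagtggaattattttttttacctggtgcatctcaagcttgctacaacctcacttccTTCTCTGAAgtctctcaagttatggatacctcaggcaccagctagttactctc
Slco1a4, chr6:141856221-141856470, minus strand: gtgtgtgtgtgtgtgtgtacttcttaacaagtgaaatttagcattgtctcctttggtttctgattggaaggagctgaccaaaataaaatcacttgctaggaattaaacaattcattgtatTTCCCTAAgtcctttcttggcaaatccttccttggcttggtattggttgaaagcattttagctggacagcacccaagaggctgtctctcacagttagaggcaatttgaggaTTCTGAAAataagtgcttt
Slco1b2, chr6:141629268-141629517, plus strand: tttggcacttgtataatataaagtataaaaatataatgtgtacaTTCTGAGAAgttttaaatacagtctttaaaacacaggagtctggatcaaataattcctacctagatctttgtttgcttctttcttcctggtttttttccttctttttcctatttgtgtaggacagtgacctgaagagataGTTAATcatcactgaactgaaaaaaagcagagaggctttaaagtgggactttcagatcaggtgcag
Slco1a1, chr6:141946963-141947212, minus strand: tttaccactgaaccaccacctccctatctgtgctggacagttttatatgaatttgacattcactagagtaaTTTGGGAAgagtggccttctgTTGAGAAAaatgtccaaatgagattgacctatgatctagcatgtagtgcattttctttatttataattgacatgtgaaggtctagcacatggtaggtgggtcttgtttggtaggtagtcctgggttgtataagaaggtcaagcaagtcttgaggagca

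The STAT motif was present in the Slc10a1 window, as TTCTCTGAA, and in the Slco1b2 window, as TTCTGAGAA. It was found in 3 of the 10 windows of the transporters, the other being a window of Slco2b1, and in 7.02% of all 32851 promoter windows of the same length. The window of the other Slc10a1 start, not shown, held no STAT match. The HNF1 core, part of the motif of a factor that controls many hepatocyte genes, was found in the Slco1b2 window only among the 10, and in 6.43% of all windows. The short C/EBP motif was in 8 of the 10 windows and in 36.8% of all. None of the 10 windows held the HNF4 motif CAAAGTCCA (0.384% of all windows). Several windows belong to 1 gene, no motif match overlapped another in the 4 windows shown, and a match is a string of letters and not a measured site.

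Slco1b2, Slco1a4 and Slco1a1 lie close together on chromosome 6 in the RefSeq gene order, with Slco1c1 before them and Slco1a6 and Slco1a5 after them. These 3 flanking family members were on the array, and all their probe sets missed the filter, with highest values of 2.41, 2.03 and 2.41. Within the cluster the 3 measured genes had log2 differences of -0.36, -0.80 and -0.15 in that order, and the Cre plus array with the highest value was B for Slco1b2 and C for the other two.

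The Cre plus arrays differed from one another. The median shift of the 7 genes from their Cre minus means was -0.57, -0.67 and -0.44 in the 3 Cre plus arrays. Of the 7 genes, 6 were below all Cre minus arrays in Cre plus A, 6 also in B and 5 in C, where 34.8%, 29.4% and 38.5% of all genes were. The gene that shifted least differed by array, since the highest shift was that of Slco2b1 in array A (-0.10), Slco1b2 in array B (0.04) and Slco1a1 in array C (0.29). Among controls, Cre minus A had the highest value of all 6 arrays for 6 of the 7 genes, which was the case for 23.8% of all genes tested, and a median shift of 0.24. Without Cre minus A the median log2 difference over the 7 was -0.39, and without Cre plus C it was -0.62.

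**Figure D3:**
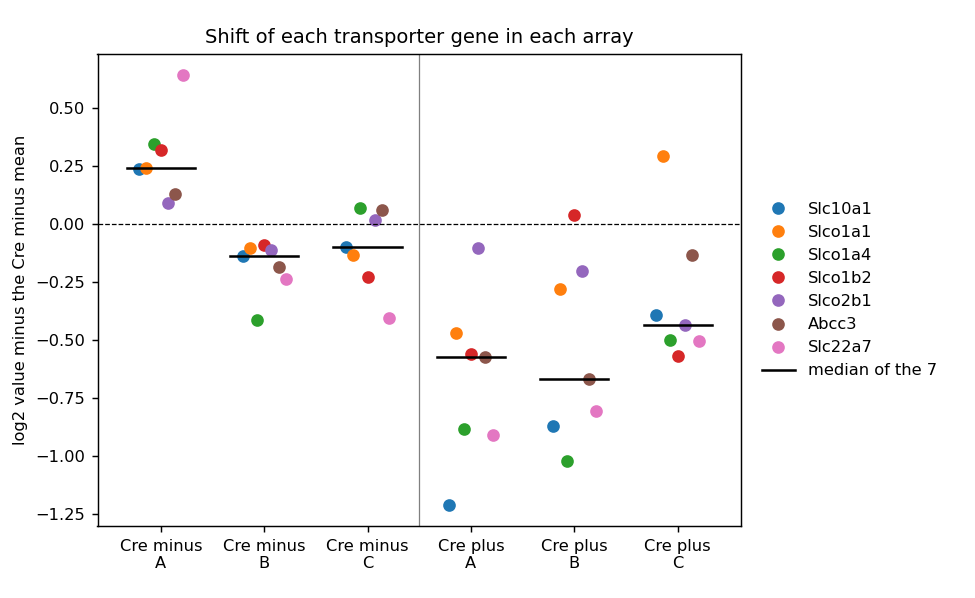
Log2 value of each transporter gene minus its Cre minus mean (vertical axis) in each of the 6 arrays (horizontal axis), with a bar at the median of the 7 genes. The median is 0.24 in Cre minus A and -0.57, -0.67 and -0.44 in the Cre plus arrays, and the gene nearest to or above 0 differs between the Cre plus arrays.

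Log ratios between members within an array were compared for all 21 pairs of the 7 genes. The groups did not overlap for 5 of them, or 23.8%, against 23.5% of all pairs of genes tested, so the pairs separated the groups about as often as any pair of genes. The tightest was Slc10a1 relative to Slco1a1, with log2 ratios of 2.03 ± 0.03 in Cre minus and 1.36 ± 0.07 in Cre plus (SD, n = 3). The ratio was lower in 3 of 3 Cre plus arrays by 0.67 ± 0.05 (SE), with an exact permutation p = 0.1, or 0.42 adjusted over the 21 pairs. This pair was chosen after its values were seen.

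The genes whose profile over the 6 arrays lay nearest to that of Slc10a1, by the Euclidean distance between mean-centred log2 values, were Prodh (0.257), Rdh9 (0.303) and Cmbl (0.306), where the median over all genes was 1.23. Prodh encodes the enzyme that starts proline breakdown, Rdh9 a retinol dehydrogenase and Cmbl a hydrolase. Their own log2 differences were -0.71 ± 0.18, -0.80 ± 0.25 and -0.71 ± 0.14, and none passed limma's adjusted threshold. Of the transporters, Slco1a4 ranked 16 by nearness to Slc10a1 (distance 0.504), Abcc3 35, Slc22a7 39, Slco1a1 242, Slco1b2 840 and Slco2b1 1739. These ranks use the same 6 arrays, so genes with a like group difference lie near each other by construction.

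Other transporters of the sinusoidal membrane did not share a direction. Of 18 listed, 12 were tested, and 6 had lower and 6 higher means, with a median log2 difference of 0.01. None passed the adjusted threshold, and an unadjusted p under 0.05 was reached by 2 lower and 4 higher genes. The smallest p belonged to the citrate importer Slc13a5 (1.85 ± 0.17, from 4.49, 4.58 and 4.48 to 6.12, 6.21 and 6.76), the zinc and iron importer Slc39a14 (0.81 ± 0.10, from 9.94, 9.94 and 9.78 to 10.58, 10.64 and 10.87) and the glucose carrier Slc2a2 (-1.45 ± 0.20, from 10.97, 10.67 and 10.89 to 9.22, 9.13 and 9.84). The first 2 were higher and Slc2a2 lower in 3 of 3 Cre plus arrays than in any Cre minus array.

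At the canalicular membrane, 7 of 9 tested exporters had lower and 2 higher means, with a median of -0.44, and an unadjusted p under 0.05 was reached by 6 lower genes and 0 higher ones. Again none passed over all genes. The sterol exporter Abcg5 had -1.004 ± 0.141, the phospholipid floppase Abcb4 -0.71 ± 0.12 and the organic cation exporter Slc47a1 -0.64 ± 0.12. Enzymes of bile acid synthesis and conjugation had a median of -0.18, with 11 of 13 genes lower and 2 higher, and 4 of the lower ones had an unadjusted p under 0.05. Cyp8b1, the sterol hydroxylase that directs synthesis towards cholic acid, had values of 9.69, 8.96 and 9.23 in Cre minus against 6.73, 8.20 and 7.78 in Cre plus. Its groups did not overlap, and its log2 difference was -1.72 ± 0.40 (limma's adjusted p = 0.186).

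Among 13 tested transcription factors and nuclear receptors known to control these transporters, 10 had lower and 3 higher means, with a median of -0.12. None passed over all genes, and at an unadjusted p under 0.05 Cebpb was higher and Nr1i3 and Nr1i2 were lower. Cebpb, a factor of the acute phase response, went from 10.77, 10.75 and 10.88 in Cre minus to 11.31, 11.24 and 11.38 in Cre plus (0.51 ± 0.07). Nr1i3 (CAR), a xenobiotic receptor, went from 9.69, 9.36 and 9.52 to 8.84, 8.88 and 8.57 (-0.76 ± 0.12), and Nr1i2 (PXR), the related receptor, had -0.40 ± 0.11. The groups did not overlap for any of these 3. The bile acid receptor Nr1h4 (FXR) had -0.12 ± 0.10 and its target Nr0b2 (SHP), a repressor of Slc10a1, had 0.12 ± 0.25, both with overlapping groups. Hnf4a, a factor of hepatocyte identity, had 0.11 ± 0.06 (limma's unadjusted p = 0.125). Its groups did not overlap, with 11.87, 11.75 and 11.89 in Cre minus against 11.97, 11.91 and 11.96 in Cre plus. Nr1h4, Nr0b2 and Hnf4a were chosen for their role after the values were seen.

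**Figure D4:**
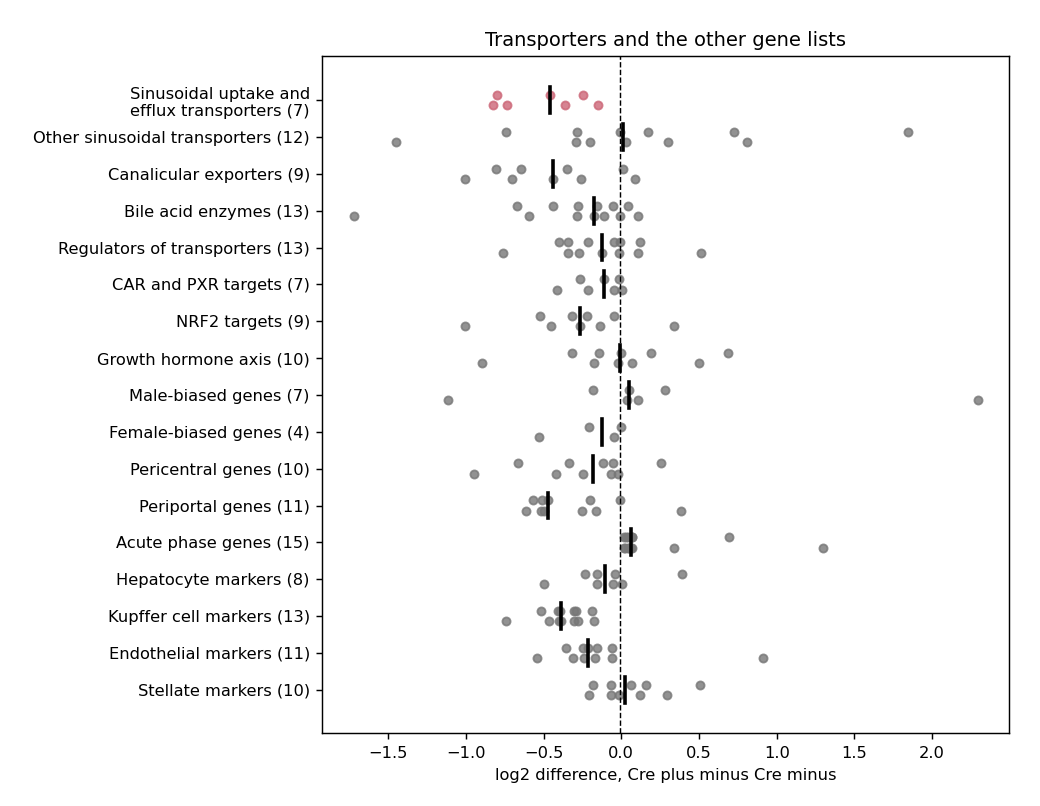
Log2 difference between Cre plus and Cre minus (horizontal axis) for each tested gene of the transporters and of the other lists, with a bar at each list's median, the number of genes in parentheses and a dashed line at the median of all genes tested (-0.01). The transporters have a median of -0.46 and the canalicular exporters of -0.44, while the other sinusoidal transporters spread to both sides around 0.01.

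Markers of other liver cells also had lower or higher values beside the transporters. All 13 tested Kupffer cell and macrophage markers had lower Cre plus means (median -0.39), 8 of them at an unadjusted p under 0.05, and their summed signal was 4555 to 4979 in Cre minus and 3305 to 4049 in Cre plus. Of 11 endothelial markers, 10 were lower and 1 higher (median -0.21), with a summed signal of 2737 to 3199 against 2241 to 2818. Stellate cell markers were lower in 5 and higher in 5 of 10 (median 0.02), with a summed signal of 2505 to 2632 against 2541 to 3171. The listed markers that were not tested were Timd4 for Kupffer cells, Cdh5 for endothelium and Col1a2 for stellate cells. Of the cholangiocyte markers only Sox9 was tested (0.38 ± 0.23), with a signal of 48.5 to 61.9 against 61.3 to 104. Erythroid and neutrophil markers were higher in mean in 3 of 3 tested, with a summed signal of 892 to 952 against 891 to 1987. The mean shift of the 3 genes from their Cre minus means was 0.93 in Cre plus A, against -0.08 and 0.04 for arrays B and C. Only the neutrophil markers rose in Cre plus A. S100a8 read 10.10 and S100a9 9.21 there, against Cre minus means of 8.46 and 7.86. The erythroid marker Alas2 read 8.21 there, below its Cre minus mean of 8.41. None of these markers passed over all genes, and their part in the transporter values was not tested.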

How the data were processed

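The authors deposited log2 values, 1 per probe set and array. The submitters' processing notes name GCRMA, without a version. This method removes background predicted from each probe's sequence, equalises the distributions of the arrays and combines probes into probe sets. Low values remain less certain. Of 45101 probe sets, 64 controls were left out, and 34958 carried 1 symbol in the platform annotation. A probe set was kept if it exceeded 4 (log2) in 3 or more of the 6 arrays, and a gene was read from its brightest kept probe set (8554 genes). The groups were compared with limma 3.58.1 in R 4.3.3 (lmFit, eBayes, no block, two-sided, Benjamini-Hochberg over all genes). Differences carry limma's standard error. Values for further probe sets come from a fit over all 15563 kept probe sets. The fit was also run on 20 simulated sets, with independent genes and spreads drawn from limma's own fitted model. That check does not cover correlated genes or array effects. Single values were also compared by an exact two-sided permutation test. Array data have no read depth, and 3 arrays per group limit the precision.

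The members and lists were chosen with earlier results of these data known. All members and their probe sets are named, and of each other list up to 3 genes by smallest p, together with the 3 genes nearest in profile to the member with the smallest p. Others are said to have been chosen afterwards. Motifs were picked from textbook knowledge. Alternatives changed the normalization, filter, prior, choice of probe set, block, weights and arrays.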

Additional observations from a re-analysis of the deposited data

How the results depend on the processing

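Over 16 alternatives to the processing, none of the 7 transporter genes passed an adjusted p under 0.05, and the lowest adjusted p was 0.126 (Slc10a1, filter raised to 6). Of 111 values, 110 were lower in Cre plus, and the exception was Slco1a1 without Cre plus A, at 0.0067, within a range of -0.37 to 0.0067 over the arrays left out. Slc10a1 kept an unadjusted p under 0.05 in 16 of 16 alternatives (-1.04 to -0.63) and Slco1a4 in 15 of 15 (-1.01 to -0.63), since the stricter filter removed Slco1a4. Abcc3 kept it in 12 of 16 (-0.62 to -0.35) and Slc22a7 in 9 of 16 (-0.94 to -0.42), both losing it without Cre plus A or without Cre plus B, Abcc3 also without Cre minus A or C, and Slc22a7 also without Cre minus B or Cre plus C, with no filter, with array weights and with the block. The number of members lower at an unadjusted p under 0.05 was 3 or 4 throughout, 3 to 4 with an array left out, while the share of all genes so called ran from 4.035% (no filter) to 10.15% (filter raised to 6), and the median log2 difference ran from -0.62 to -0.39. Slco2b1 was -0.12 without the _x_at and _s_at probe sets, against -0.25.

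The labels state no pairing by letter, and deviations of same-letter arrays correlated at -0.152, -0.102 and 0.0188. These deviations were centred within each group of 3 arrays, so the correlations cannot exclude a pairing. In a fit with the letters as a block, limma's standard error fell for Slco1a4, Slco1b2, Slco2b1 and Abcc3. It rose for Slc10a1, Slco1a1 and Slc22a7. With the replicate block the number of members lower at an unadjusted p under 0.05 was 3, against 4 without it, that of all genes was 611, against 702, and 0 of all genes passed the adjusted threshold, against 2 without it.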

Other observations

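Slco1a1 is male-biased and Slco1a4 female-biased in mouse liver, so other genes with a sex bias were read beside them. Of 7 tested male-biased genes, 2 were lower and 5 higher in Cre plus mean (median 0.05), and both lower ones and 1 higher one had an unadjusted p under 0.05. The glucuronosyltransferase Ugt2b38 had 2.29 ± 0.26, the elongase Elovl3 -1.11 ± 0.30 and the cytochrome Cyp2d9 -0.18 ± 0.07. Of 12 listed female-biased genes only 4 were tested. All 4 had lower means, with a median of -0.13 and 0 at an unadjusted p under 0.05. Cyp3a44 (-0.05) and Cux2 (-0.0023, chosen after its values were seen) lay near the filter and hardly differed. Acot3 (-0.53 ± 0.51) and Cyp17a1 (-0.21 ± 0.52) varied widely between arrays, so the shared direction says little about the group. In the growth hormone and STAT5 axis, which sets this bias, 6 of 10 genes were lower and 4 higher (median -0.01), and Igfals had the smallest p at -0.90 ± 0.32. None of these genes passed limma's threshold over all genes.

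Over all genes tested, 53.5% had a lower mean and 8.21% were lower at limma's unadjusted p under 0.05. Of 12 listed targets of CAR and PXR, 7 were tested, and 6 of these had lower means (median -0.11). An unadjusted p under 0.05 was reached by 1 of them, Cyp2c37 at -0.42 ± 0.13. A link to the receptors' own transcripts was not tested. Targets of NRF2, a factor that can induce Abcc3, were lower in 8 of 9 (median -0.27), and an unadjusted p under 0.05 was reached by 4 lower genes and 1 higher one. The carbonyl reductase Cbr1 had -1.01 ± 0.18 and the thioredoxin reductase Txnrd1 0.34 ± 0.08. By position in the lobule, 10 of 11 periportal genes were lower (median -0.47, 6 at an unadjusted p under 0.05) and 9 of 10 pericentral genes (median -0.18, 2 at an unadjusted p under 0.05). Oat, a pericentral enzyme, had -0.66 ± 0.17 and Hsd17b13, a periportal lipid droplet protein, -0.61 ± 0.08. Of 15 acute phase genes, 15 were higher (median 0.06) in mean, with A2m at 1.30 ± 0.17 as the 1 with an unadjusted p under 0.05. However, 10 of the 15 (Saa1 and Fgb among them, chosen after their values were seen) lay above 14 in all arrays, near the highest value of any probe set (15.65 to 15.74), and differed by 0.02 to 0.07, so the median says little about the group.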
